A study of Mus musculus with 6 samples.

Results

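Proteasome genes were compared in the quadriceps, the large extensor muscle of the thigh, between 3 male ERRgamma transgenic mice (genotype label hSkeletal Actin -ERRg transgenic) and 3 male wild-type mice, all of strain C57/BL6 and 8 weeks old. The transgene places the orphan nuclear receptor ERRγ under a skeletal actin promoter, so that it is driven in the fibres. The founder line of the mice is not stated. The members were all genes whose symbol begins with Psm, a letter from a to g and a digit, on probe sets that name 1 gene only. This rule found 49 genes with 103 probe sets, of 18193 genes and 45101 probe sets on the array. Psmc3ip, a meiotic recombination factor, and Psme3ip1, a partner of the activator PA28γ, match the pattern but encode no proteasome subunit or assembly factor, and were kept apart. Of the 47 remaining genes, 45 had at least 1 probe set bright enough to be tested, 83 probe sets in all. Psme2 is measured only by a probe set shared with its copy Psme2b, which was kept out of the counts and is described beside Psme1. Psma8, an α subunit of the testis, and Psmb11, the catalytic subunit of the thymus, had no signal above 43.3 on any array and were not tested.

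The proteasome degrades proteins that have been tagged with ubiquitin, and in muscle it carries out much of the breakdown of contractile proteins during wasting. Its barrel-shaped core is built of α subunits (Psma), which form the gated outer rings, and β subunits (Psmb), some of which cut the protein chain. A regulatory particle caps the barrel. Its base holds the ring of ATPases (Psmc) that unfolds substrates, and its lid holds scaffold subunits and the enzyme that removes ubiquitin (both named Psmd). Other activators (Psme) can cap the core in place of the regulatory particle, and dedicated chaperones (Psmg and some Psmd genes) assemble the parts.

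Each array gave a MAS5 signal, a linear intensity in arbitrary units, scaled to a trimmed mean of 200. Differences below are transgenic minus wild-type on a log2 scale after adding 16 units to each signal, and a gene passed the test at an adjusted p under 0.05 from limma over all 26995 tested probe sets. A gene is represented by its brightest probe set. Precision is limited by having 3 arrays of each genotype. Esrrg itself gave 14427, 13808 and 12697 on the transgenic arrays, against 71.6, 61.0 and 24.1 on the wild-type arrays. All 15 genes on a list that defines skeletal muscle were present, with no signal below 1023 on any array. Of these 15, 3 rose and 0 fell, where 7.65% of all genes rose and 5.75% fell. The risers were myoglobin (Mb, 2.70-fold) and the myosin heavy chains Myh2 (5.84-fold) and Myh1 (1.59-fold, chosen after its value was seen). Of 12 endothelial markers, all 12 differences were above 0. At the adjusted threshold 8 rose and 4 did not pass, where 7.65% of all genes rose. The largest rises were those of Esam (1.32, limma adjusted p = 6.28e-05) and Gpihbp1 (1.04, limma adjusted p = 0.00516). The 12 markers had a summed signal of 6238 to 7087 in transgenic against 3372 to 4135 in wild-type muscle. Leukocyte markers summed to 4054 to 5281 in transgenic and 4808 to 5811 in wild-type muscle. Of 12 tested leukocyte markers, 1 fell, 0 rose and 11 did not pass, where 5.75% of all genes fell. The faller was Lyz2, with 753.5, 773.5 and 613.7 in transgenic against 1167, 1089 and 903.7 in wild-type muscle (-0.55, limma adjusted p = 0.0244). The 5 B and T cell markers with a probe set did not exceed 54.1 on any array. In whole muscle, fewer cells of a type and less RNA per cell cannot be told apart, and the part of cell and fibre make-up in the results below was not tested.

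The proteasome genes that passed the test were nearly all lower in transgenic muscle. Of 45 genes tested, 11 fell, 1 rose and 33 did not pass. Across all 12529 genes tested on the array, 5.75% fell and 7.65% rose. The difference was below 0 for 37 of the 45 proteasome genes, beside 46.2% of all genes. The median difference was -0.22, beside a median of 0.03 over all genes. Signals of the genotypes did not overlap, with transgenic lower, at 19 of 45 genes, where the share over all genes was 14.7%, and did not overlap with transgenic higher at 2 genes, where that share was 18.6%. The fallers were Psma3 and Psma6 of the core, Psmc1 and Psmc3 of the ATPase ring, Psmd1 and Psmd4 of the base, Psmd6, Psmd7 and Psmd8 of the lid, the chaperone Psmg2 and the activator Psme4, and their mean signal was lower by 19.4% (Psmc3) to 58.2% (Psmd8). The riser was the activator Psme1.

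**Figure D1:**
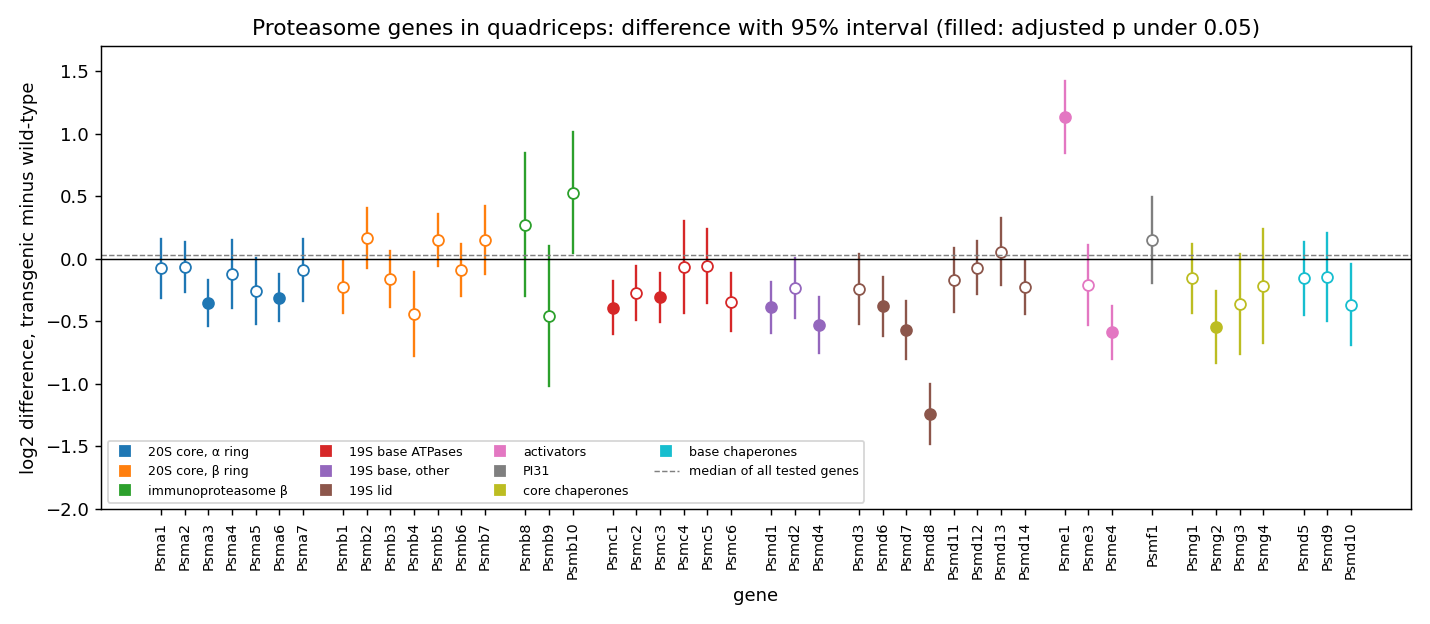
Difference between the genotypes for each of the 45 tested proteasome genes (log2, transgenic minus wild-type, vertical axis) with its 95% interval from limma, grouped by class; filled points passed at an adjusted p under 0.05 and the dashed line is the median of all 12529 tested genes. Most points lie below 0, with Psmd8 lowest at -1.24 and Psme1 highest at 1.13.

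The shift was seen on every transgenic array. The median proteasome gene stood at -0.25, -0.21 and -0.19 relative to its wild-type mean on transgenic arrays 1, 2 and 3, while the wild-type arrays lay between -0.01 and 0.01. By this centring the wild-type values of each gene average 0, which draws the wild-type medians towards 0. The median of all tested genes stood at 0.05, 0.05 and 0.02 on the transgenic arrays. The direction of calls over the whole array depends on scaling, with 1721 probe sets higher and 1394 lower in transgenic muscle as deposited and 973 higher and 2390 lower after scaling each array to a common median. That rescaling moved the median of all genes by -0.14. Relative to all genes, the proteasome median was -0.25 both as deposited and after median scaling, and -0.18 after quantile normalization. The number of proteasome genes that fell was 4 without transgenic 1, 6 without transgenic 2, 5 without wild-type 1, 4 without wild-type 2 and 2 when limma was run without its intensity trend, whereas 8 fell without transgenic 3 and 11 without wild-type 3. Psmd8, Psme4, Psmd7, Psmd4 and Psme1 passed with each array left out in turn.

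**Figure D2:**
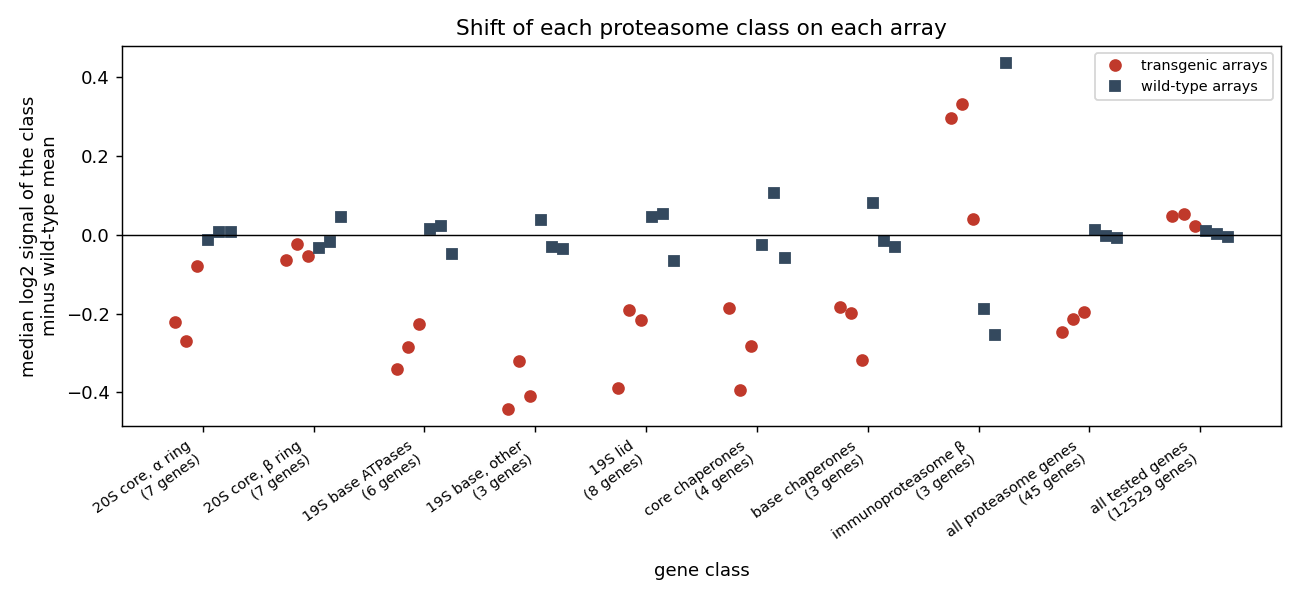
Median log2 signal of each class of proteasome genes on each array, relative to each gene's wild-type mean (vertical axis), with transgenic arrays as circles and wild-type arrays as squares. In the α ring, the regulatory particle classes and the chaperones all 3 transgenic arrays lie below the 3 wild-type arrays, in the immunoproteasome class wild-type 3 is the highest array, and the medians of all tested genes lie near 0.

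Promoters are shown for the 3 genes whose calls held under each of the 19 alternative settings tried, the fallers Psmd8 and Psme4 and the riser Psme1. The sequences are the 250 bases before the gene's start in the RefSeq table of build GRCm38.p6, on the gene's own strand, 5′ to 3′, in lower case with bases of a motif match in capitals.

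Psmd8, chr7:29180674-29180923, minus strand: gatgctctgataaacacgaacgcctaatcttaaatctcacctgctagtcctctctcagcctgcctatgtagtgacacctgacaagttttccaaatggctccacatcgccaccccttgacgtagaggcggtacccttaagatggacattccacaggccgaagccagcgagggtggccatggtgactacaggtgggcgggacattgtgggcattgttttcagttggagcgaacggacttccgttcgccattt

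Psme4, chr11:30771525-30771774, plus strand: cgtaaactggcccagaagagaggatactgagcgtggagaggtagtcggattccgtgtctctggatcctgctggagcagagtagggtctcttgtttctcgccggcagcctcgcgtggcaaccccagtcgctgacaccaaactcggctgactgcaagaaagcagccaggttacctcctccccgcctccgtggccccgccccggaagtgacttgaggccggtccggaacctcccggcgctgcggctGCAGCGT

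Psme1, chr14:55578244-55578493, plus strand: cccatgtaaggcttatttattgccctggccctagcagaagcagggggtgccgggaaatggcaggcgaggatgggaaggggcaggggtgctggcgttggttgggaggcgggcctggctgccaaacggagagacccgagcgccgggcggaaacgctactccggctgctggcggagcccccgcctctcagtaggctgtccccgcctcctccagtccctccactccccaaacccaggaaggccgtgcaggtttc

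Windows of 250 bases before to 50 after the start were searched on both strands for TCAAGGTCA, the response element that ERR receptors bind, for AAGGTCA, the core within it, and for TGACNNNGC, the antioxidant response element through which NFE2L1 and NFE2L2 act on proteasome genes. RefSeq windows were at hand for 40 of the 48 proteasome genes listed, 43 windows in all. The full ERR element was found in 0 of these 43 windows and in 0.423% of 32851 windows over all genes. Its core was found in 3 windows (Psma3, Psmb10 and Psmd2), or 6.98%, beside 4.72% of all windows. The antioxidant response element was found in 6 windows (Psmb5, Psmb6, Psmc6, Psmd9, Psmd12 and Psme4), or 14.0%, beside 12.4% of all windows. In Psme4 the match lies on the opposite strand from base -7 to base 2 relative to the start, and the capitals above mark its bases before the start. Of the 9 windows that belong to genes that fell, 1 held the core and 1 held the antioxidant element. These letters are absent from the Psmd8 and Psme1 windows, which says nothing of binding elsewhere.

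In the core particle, 2 genes of the α ring fell and 0 of the constitutive β ring passed. All 7 tested Psma genes had a difference below 0, with a median of -0.12, and 2 of them fell. Over all genes, 46.2% had a difference below 0 and 5.75% fell. Whether the α ring differed more than the β ring was not tested. Psma3 encodes the subunit α7. It gave 4468, 4444 and 4440 on the transgenic arrays, against 5636, 5799 and 5634 on the wild-type arrays. The arrays of each genotype lay close together and well apart from the other genotype, with a difference of -0.35 (SE 0.08, limma adjusted p = 0.0206). Psma6, the subunit α1, gave 3546, 3446 and 3551 in transgenic against 4475, 4230 and 4389 in wild-type muscle, a difference of -0.31 (SE 0.09, limma adjusted p = 0.0410). Its next brightest probe set differed by -0.33 without passing (limma adjusted p = 0.0734), although the genotypes did not overlap there either. The other 5 tested α genes, from Psma5 at -0.26 to Psma2 at -0.06, had overlapping signals and missed the threshold. Psma3 lost its call without transgenic 1, transgenic 3, wild-type 1 or wild-type 2, and Psma6 without any array but wild-type 3, with adjusted p up to 0.0928 and 0.136. The dim second probe set of Psma3 overlapped between the genotypes at -0.05 (limma adjusted p = 0.891), and the mean of both gave -0.20 without passing (limma adjusted p = 0.199).

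Of the 7 constitutive Psmb genes, 0 passed in either direction at the adjusted threshold, and the median difference was -0.09. At an unadjusted p under 0.05, 2 of them (Psmb1 and Psmb4) were lower, where 12.4% of all genes were lower. The catalytic subunits were Psmb5, with chymotrypsin-like activity (0.15, 95% interval -0.06 to 0.35), Psmb6, with caspase-like activity (-0.09, -0.30 to 0.12), and Psmb7, with trypsin-like activity (0.15, -0.13 to 0.42). The differences of Psmb5 and Psmb7 turned to -0.01 after median scaling. Psmb5 gave 2328, 2510 and 2537 on the transgenic arrays, against 2318, 2246 and 2100 on the wild-type arrays, so that its lowest transgenic array stood just above its highest wild-type array. Psmb4, a structural β subunit with no catalytic site, gave 2487, 2705 and 3916 in transgenic against 4124, 3787 and 4260 in wild-type muscle. Transgenic 3 overlapped the wild-type arrays, and without it the gene passed, at -0.64 (limma adjusted p = 0.00841). Psmb4 did not pass with any other single array left out (limma adjusted p up to 0.292). The other Psmb4 probe set was nearer to 0, at -0.14.

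The inducible subunits Psmb8, Psmb9 and Psmb10 replace the catalytic β subunits in the immunoproteasome, which interferon induces and which supplies peptides for MHC class I, and 0 of the 3 passed. Psmb10 gave 236.8, 277.4 and 147.9 in transgenic against 123.8, 137.2 and 173.1 in wild-type muscle, a difference of 0.53 (SE 0.22, limma adjusted p = 0.160). It passed without transgenic 3, the lowest of the transgenic arrays, at 0.77 (limma adjusted p = 0.0356). It did not pass with any other single array left out, with differences down to 0.35 and limma adjusted p up to 0.395. Psmb8 gave 144.7, 148.8 and 133.3 in transgenic against 82.2, 93.7 and 192.2 in wild-type muscle. Psmb9 gave 69.4, 81.9 and 49.1 in transgenic against 86.5, 74.9 and 135.8 in wild-type muscle. In each of these 3 genes wild-type 3 was the highest of the wild-type arrays. The 20 MHC class I and interferon response genes with a probe set had summed signals of 9581, 11343 and 8560 on transgenic arrays 1 to 3, against 8542, 9443 and 14938 on wild-type arrays 1 to 3. B2m, H2-K1 and H2-D1 made up 10996 of the 14938 units on wild-type 3, which was the highest wild-type array for 16 of the 20 genes. These 3 were chosen after their values were seen. Of the 20 genes on this list, 0 passed in limma and the median difference was -0.01. At an unadjusted p under 0.05 there were 3, with Igtp and Ifit3 lower and Irf9, chosen after its value was seen, higher, where 12.4% of all genes were lower and 15.5% higher. Igtp, an interferon-induced GTPase, and Ifit3, of the type I interferon response, had the smallest p, at differences of -0.64 and -0.58 (limma adjusted p = 0.0592 and 0.0585).

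**Figure D3:**
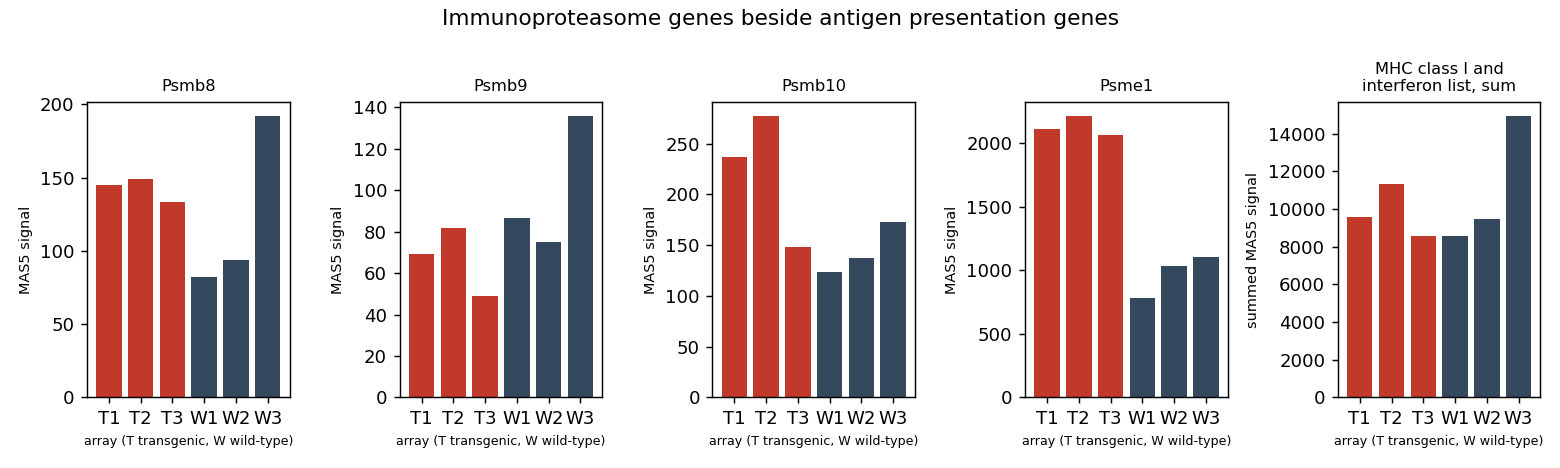
MAS5 signal on each array for the immunoproteasome subunits Psmb8, Psmb9 and Psmb10 and the activator Psme1, with the summed signal of 20 MHC class I and interferon response genes at the right; bars are single arrays, transgenic 1 to 3 (T) left of wild-type 1 to 3 (W). Wild-type 3 has the highest bar for the sum and for Psmb8 and Psmb9, whereas all transgenic bars of Psme1 exceed its wild-type bars.

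Subunits of the regulatory particle held 7 of the 11 falls. Of 17 genes tested, 7 fell, 0 rose and 10 missed the threshold, and 16 differences were below 0, with a median of -0.27. The genotypes' signals did not overlap, with transgenic lower, at 12 of the 17. Over all genes, 5.75% fell, 46.2% had a difference below 0 and 14.7% did not overlap with transgenic lower. Whether the regulatory particle differed more than the core, where 2 of 14 constitutive genes fell and the median was -0.11, was not tested.

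Among the ATPases all 6 differences were below 0, beside 46.2% of all genes, with a median of -0.29. Psmc1 and Psmc3 encode ATPases (named Rpt2 and Rpt5 in yeast) whose tails dock into the α ring and open its gate. Psmc1 gave 1499, 1435 and 1507 on the transgenic arrays, against 1899, 1858 and 2088 on the wild-type arrays, a difference of -0.39 (SE 0.10, limma adjusted p = 0.0256). Psmc3 gave 2096, 2071 and 2166 in transgenic against 2643, 2613 and 2604 in wild-type muscle, a difference of -0.31 (SE 0.09, limma adjusted p = 0.0465). In both genes the arrays of a genotype lay within a narrow band, apart from the other genotype. Psmc3 did not pass with any 1 array left out (adjusted p from 0.0526 to 0.143), and Psmc1 passed only without wild-type 3. Psmc6 (-0.35, limma adjusted p = 0.0575) and Psmc2 (-0.27, limma adjusted p = 0.106) did not overlap between the genotypes but did not pass. Both passed without wild-type 3, and Psmc6 also without transgenic 3. Psmc4 and Psmc5 differed by -0.07 and -0.06, with overlapping signals, and their sign turned when single arrays were left out. The other Psmc4 probe set gave 1175, 1249 and 1085 in transgenic against 1328, 1518 and 1407 in wild-type muscle, which did not overlap, and did not pass at -0.27 (limma adjusted p = 0.127).

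In the base, Psmd1, the large scaffold to which the ubiquitin receptor ADRM1 binds, gave 2006, 2184 and 2052 in transgenic against 2866, 2669 and 2661 in wild-type muscle, a difference of -0.39 (SE 0.09, limma adjusted p = 0.0214). Psmd4, a receptor for ubiquitin chains, gave 1385, 1649 and 1525 on the transgenic arrays, against 2254, 2151 and 2189 on the wild-type arrays, a difference of -0.53 (SE 0.10, limma adjusted p = 0.00688). The next brightest Psmd4 probe set fell as well, at -0.58 (limma adjusted p = 0.00751), while the dimmest of the 3 did not pass, at 0.21. Psmd2, the other scaffold of the base, differed by -0.23 without passing (limma adjusted p = 0.200), although its signals did not overlap. Psmd1 lost its call without transgenic 1, transgenic 3, wild-type 1 or wild-type 2, with adjusted p up to 0.0953.

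The lid held the largest change of a subunit. Psmd8, the lid subunit that is the last to join in yeast, gave 1335, 1366 and 1293 on the transgenic arrays, against 3424, 3370 and 2771 on the wild-type arrays. The transgenic arrays lay close together and under every wild-type array, and the mean was 1331 ± 36.5 in transgenic and 3188 ± 362.1 in wild-type muscle (SD, n = 3 each). The difference was -1.24 (SE 0.11, limma adjusted p = 7.51e-05), 104th from the lowest of the 12529 genes. Psmd8 has 1 probe set on the array, so no second probe set bears on this value. Psmd7, the partner of the deubiquitinase Psmd14, gave 1277, 1263 and 1140 in transgenic against 1942, 1891 and 1662 in wild-type muscle, a difference of -0.57 (SE 0.11, limma adjusted p = 0.00607). Psmd7 did not pass when its bright probe set was averaged with both dim ones, at -0.29. Psmd6, a scaffold of the lid, gave 3607, 3443 and 4359 in transgenic against 5134, 4730 and 4921 in wild-type muscle, a difference of -0.38 (SE 0.11, limma adjusted p = 0.0451). Transgenic 3 was the nearest of its arrays to the wild-type ones, and the other Psmd6 probe set also fell, at -0.42 (limma adjusted p = 0.0177). The call at the brighter Psmd6 probe set held only without transgenic 3 among the arrays left out, with adjusted p up to 0.154.

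The remaining lid genes did not pass at their brightest probe set. Psmd14, the deubiquitinase of the lid, gave 1717, 1610 and 1512 in transgenic against 1912, 1884 and 1882 in wild-type muscle, which did not overlap (-0.23, limma adjusted p = 0.159). Psmd3 (-0.24), Psmd11 (-0.17), Psmd12 (-0.07) and Psmd13 (0.05) did not pass either. Psmd11, whose level limits proteasome assembly in some stem cells, was uneven over its 5 tested probe sets. The third brightest fell, with 821.3, 882.7 and 878.0 in transgenic against 1208, 1284 and 1117 in wild-type muscle (-0.47, limma adjusted p = 0.0148), and the other four lay between -0.29 and 0.02.

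Among the activators with a probe set of their own, Psme1 rose and Psme4 fell. Psme1 encodes the α subunit of PA28, the interferon-inducible cap that works with the immunoproteasome. It gave 2114, 2217 and 2069 on the transgenic arrays, against 785.4, 1032 and 1102 on the wild-type arrays, with every transgenic array well above every wild-type array. The mean was 2133 ± 75.9 in transgenic and 973.3 ± 166.4 in wild-type muscle (SD, n = 3 each), a ratio of 2.19 and a difference of 1.13 (SE 0.13, limma adjusted p = 0.000435). Wild-type 3, the highest wild-type array for Psmb8, Psmb9 and Psmb10, was the highest here too. Psme2 encodes the β subunit of PA28, the partner of Psme1 in that cap. The probe set it shares with Psme2b gave 637.2, 570.8 and 581.3 in transgenic against 833.8, 799.6 and 796.6 in wild-type muscle. Its transgenic arrays all lay below its wild-type arrays, opposite to Psme1, with a difference of -0.43 (SE 0.11, limma adjusted p = 0.0249). Signals of Psme2 and Psme2b cannot be told apart there. Psme3, the nuclear PA28γ, did not pass, at -0.21, and its other tested probe set lay at 0.12.

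Psme4 encodes PA200, a large single-chain activator that favours degradation of acetylated proteins such as histones. Its brightest probe set gave 3421, 3667 and 3553 on the transgenic arrays, against 4920, 5817 and 5305 on the wild-type arrays, a difference of -0.59 (SE 0.10, limma adjusted p = 0.0030). The next gave 2065, 2246 and 3159 in transgenic against 5846, 6130 and 4700 in wild-type muscle, a difference of -1.17 (SE 0.16, limma adjusted p = 0.00115). Both separated the genotypes fully, and 2 further probe sets also fell, by 0.77 and 0.94 on the log2 scale. The 2 dimmest, with no signal above 86.9 on any array, did not pass, at -0.11 and -0.61. Over the 4 probe sets that passed the differences therefore ran from -1.17 to -0.59.

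**Figure D4:**
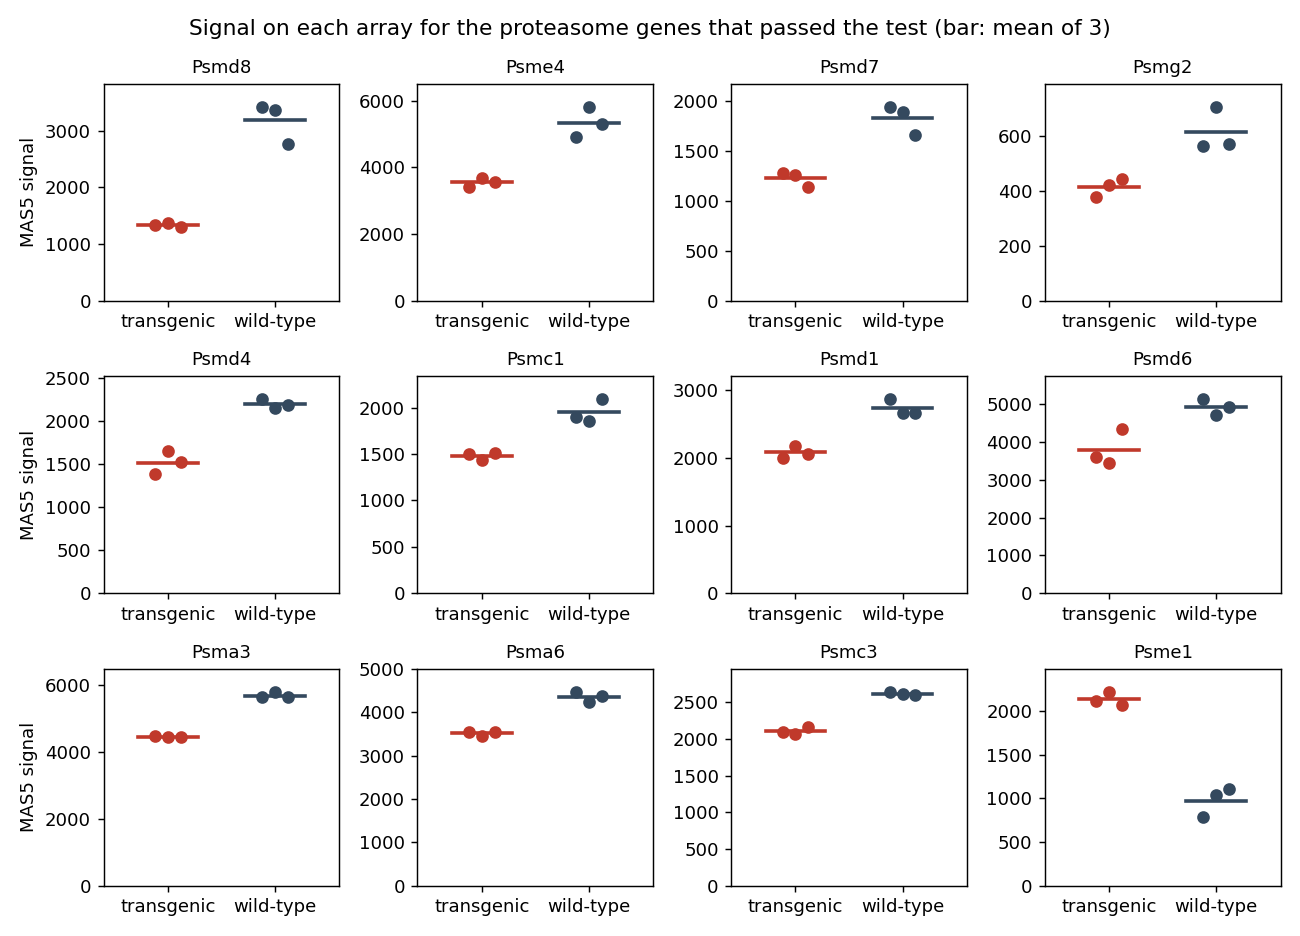
MAS5 signal (vertical axes, from 0) of the 12 proteasome genes that passed the test, with a point for each array and a bar at the mean of 3, transgenic left of wild-type. The genotypes do not overlap in any of the 12 panels, and Psme1 is the only one in which the transgenic arrays are higher. These genes were chosen by the test on the same signals, which favours such separation. Over all genes, 14.7% did not overlap with transgenic lower and 18.6% with transgenic higher.

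Psmf1, which encodes the proteasome-binding protein PI31, did not pass, at 0.15. Among assembly factors, all 7 differences were below 0 and 1 gene fell, beside 46.2% and 5.75% of all genes. Psmg2, a chaperone that pairs with Psmg1 to build the α ring, gave 377.7, 423.2 and 444.1 on the transgenic arrays, against 565.8, 707.5 and 573.4 on the wild-type arrays, a difference of -0.55 (SE 0.13, limma adjusted p = 0.0220). Its call was lost without transgenic 1, transgenic 2 or wild-type 2, with adjusted p up to 0.0998, and the second Psmg2 probe set differed by -0.41 without passing (limma adjusted p = 0.0649). Psmg1 (-0.16), Psmg3 (-0.36) and Psmg4 (-0.22) overlapped between the genotypes. The chaperones of the ATPase ring, Psmd5, Psmd9 and Psmd10, lay between -0.37 and -0.15 without passing.

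Counted by probe set, 17 of 83 (20.5%) fell and 1 rose, beside 5.16% that fell among all tested probe sets. Of 21 genes with more than 1 tested probe set, 0 had calls in both directions, and 12 had all their differences below 0. Probe sets of a gene share its transcripts and arrays and are no replicates. Psmc3ip and Psme3ip1 did not pass, at 0.03 and 0.10.

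**Figure D5:**
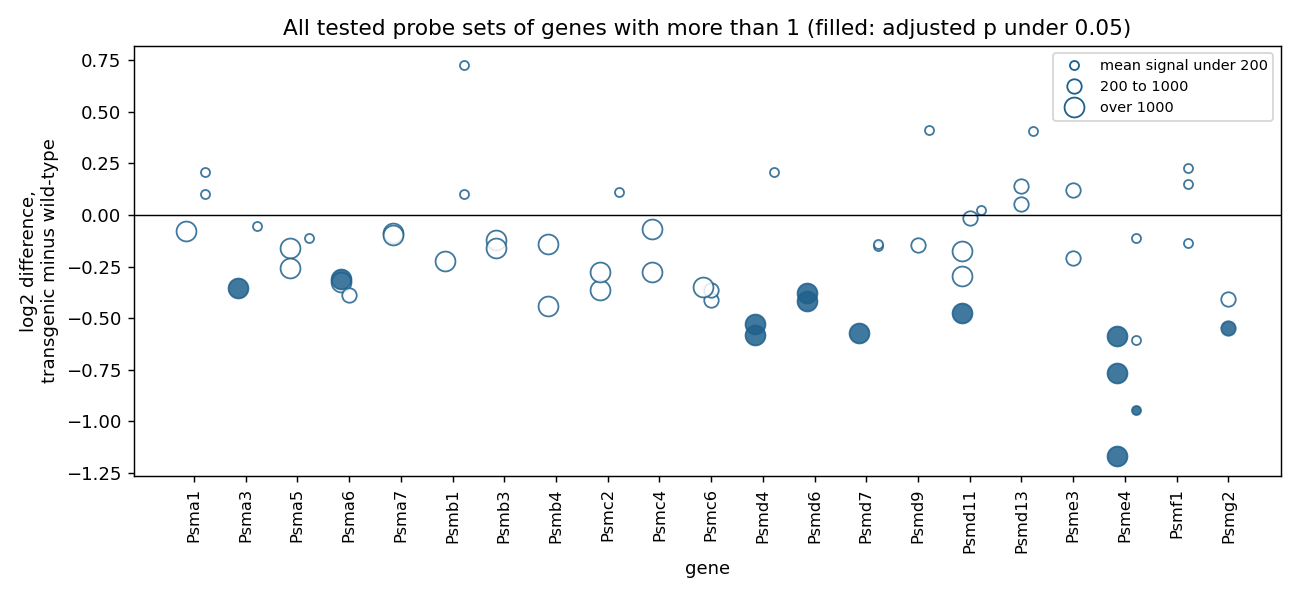
Difference between the genotypes (log2, transgenic minus wild-type) at each tested probe set of the 21 proteasome genes with more than 1, with larger points for brighter probe sets and filled points for those that passed. Filled points all lie below 0, and 4 of the 6 Psme4 probe sets are among them.

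Partners of the proteasome outside the Psm symbols had differences below 0 at 18 of 22 genes tested. Of these 22, 5 fell, 1 rose and 16 missed the threshold (median -0.19). Over all genes, 46.2% had a difference below 0, 5.75% fell and 7.65% rose. Rad23b, which shuttles ubiquitinated proteins to the proteasome, gave 1221, 834.5 and 1098 in transgenic against 1802, 1712 and 1459 in wild-type muscle (-0.66, limma adjusted p = 0.0157). Ubxn1, a cofactor of the segregase VCP, gave 1216, 1485 and 1389 in transgenic against 2224, 2347 and 1856 in wild-type muscle (-0.64, limma adjusted p = 0.00671). The transgenic arrays lay under every wild-type array for both. The others that passed, chosen after their values were seen, were Ngly1 (-0.59), the glycanase that activates NFE2L1, Ecpas (-0.52), an adaptor that holds core and cap together, Uchl5 (-0.44), a deubiquitinase of the base, and Zfand2a (0.62), a stress-induced proteasome-binding protein. Nfe2l1, which drives proteasome gene transcription when proteasome activity is short, gave 1156, 1437 and 1145 in transgenic against 1312, 1442 and 1163 in wild-type muscle, with full overlap (-0.07, limma adjusted p = 0.780). It and the core chaperone Pomp (-0.15, limma adjusted p = 0.510) were chosen after their values were seen.

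Of 17 tested ubiquitin genes and enzymes of its activation and conjugation, 2 fell and 0 rose, beside 5.75% and 7.65% of all genes. The other 15 missed the threshold, and the median over the 17 was -0.17. The fallers were conjugating enzymes. Ube2e1 gave 2029, 1939 and 2422 on the transgenic arrays, against 4032, 3555 and 4032 on the wild-type arrays (-0.86, limma adjusted p = 0.00082). Ube2d1 gave 2911, 2402 and 2991 in transgenic against 5148, 4955 and 4554 in wild-type muscle (-0.82, limma adjusted p = 0.000976). Both stood clear of the wild-type range. Of 13 atrophy-related ligases and regulators, 1 fell, 1 rose and 11 missed the threshold (median 0.03). The fall and the rise are 7.69% of the list each, near the 5.75% and 7.65% over all genes. Trim63 (MuRF1), which marks sarcomere proteins for degradation, gave 1866, 1658 and 2069 in transgenic against 3258, 3583 and 2876 in wild-type muscle (-0.79, limma adjusted p = 0.00183). Foxo3, a transcription factor of the atrophy programme, gave 309.5, 447.5 and 376.3 in transgenic against 219.2, 229.7 and 192.5 in wild-type muscle (0.77, limma adjusted p = 0.0103). Both genes separated the genotypes, in opposite directions.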

How the data were processed

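The deposited values are MAS5 signals, linear array intensities that the authors scaled, per the submitters' processing notes and the values, to a trimmed mean of 200 (2% trimmed at each end). The MAS5 version is not given in the sources used here. RNA was total RNA extracted with Trizol, per the labels' protocols. Control probe sets (64) were left out. Of the others, 34945 named 1 gene in the platform annotation, 932 named several and 9160 named none. Signals were analysed as log2(signal + 16), keeping 26995 probe sets with a mean signal above the 40th percentile (37.8), in R 4.3.3 with limma 3.58.1, using lmFit and a trended eBayes. Its tests were two-sided and their p-values were adjusted by Benjamini-Hochberg. The added 16 understates the change of dim genes. The labels call the samples biological replicates. An exact permutation test of 3 against 3 cannot give a p below 0.10, so single-gene permutation tests were not used. Promoters came from the RefSeq table (GRCm38.p6), and no genome was searched. Same-numbered samples did not deviate together (correlations 0.0701, -0.0770 and -0.0220). The array medians ran from 57.1 to 61.9 in transgenic and 52.1 to 56.3 in wild-type muscle. The members and lists were chosen with earlier results of these data known. Every proteasome gene could be named, with values by array mainly for those that passed and the immunoproteasome genes. For each other list the rule named the 2 largest changes that passed, or the 2 smallest p where none passed. Alternatives were other added constants, filters, scalings, variance models, array weights, a replicate block, other choices of probe set and arrays left out.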

Additional observations from a re-analysis of the deposited data

How the results depend on the processing

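The count of 11 proteasome genes that fell became 7 with no filter on dim probe sets, where more probe sets were tested and 3.13% of all genes fell. It became 2 with eBayes without an intensity trend, which called 1584 probe sets in place of 3115 and where 2.59% of all genes fell. It was 16 after scaling to a common median, 13 with array weights, 12 with a filter at the 60th percentile, 10 with quantile normalization, 8 with the mean of probe sets or the restricted identifiers, 10 in 2 against 2, and 11 with robust eBayes or another added constant. The share of all genes that fell was 9.81% with a common median, 7.03% with array weights, 8.51% with the 60th percentile and 5.90% with quantile normalization. This share was 5.92% with the mean of probe sets, 5.59% with the restricted identifiers and 5.74% in 2 against 2. With robust eBayes 6.04% of all genes fell, and 5.59% to 5.97% with another added constant. With 1 array left out, fewer samples entered: 4 to 11 proteasome genes fell, beside 2.91% to 6.22% of all genes. In these runs 1 to 2 proteasome genes rose, beside 4.61% to 8.05% of all genes, and 1705 to 3301 probe sets were called. The numbers of genes that fell were 4 without transgenic 1 or wild-type 2, 5 without wild-type 1, 6 without transgenic 2, 8 without transgenic 3 and 11 without wild-type 3, and probe sets called were 1916, 1875, 1705, 2073, 2329 and 3301 in that order of arrays. Psmb10 was the further gene that rose without transgenic 3, and 2 rose in 2 against 2 without wild-type 3 and transgenic 3. The median difference of -0.22 became -0.20 with log2(signal + 50), -0.36 with a common median, -0.18 with quantile normalization, -0.17 with the mean of all probe sets of a gene and -0.16 with identifiers restricted to those without s, x or a (39 genes), and ran from -0.23 to -0.15 with 1 array left out. The replicate block left 8 falls and 1 rise, where 4.96% of all genes fell and 6.85% rose, and 2744 probe sets called. Of the 12 called genes, 0 turned sign, and Psmd8, Psme1 and Psme4 passed under all 19 settings. Psmd4 and Psmd7 did not pass without the trend (limma adjusted p = 0.0590 and 0.0527) or as the mean of probe sets (0.0689 and 0.321). Among genes that did not pass, 9 turned sign: with a common median Psmb5 (-0.0065), Psmb7 (-0.0063) and Psmd13 (-0.096), with the mean of probe sets Psma1 (0.078), Psmb1 (0.20) and Psmd9 (0.13), with the restricted identifiers Psmb1 (0.72), and with an array left out Psma7 (-0.16 to 0.0011), Psmc4 (-0.25 to 0.055), Psmc5 (-0.20 to 0.047), Psmd13 (-0.045 to 0.13). The cause of these changes was not tested. Arrays give no read depth, and values near the 37.8 filter carry the least precision.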
